A study of Drosophila melanogaster with 2 samples.

Results

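The genes described here are 34 mitosis, kinetochore and spindle genes of Drosophila melanogaster, out of 14210 genes with a value in the deposited tables. They were chosen by function and matched by the gene name in the files: 3 mitotic kinases, 2 chromosomal passenger partners, 5 checkpoint genes, 3 regulators of anaphase onset, 3 centromere and kinetochore genes, 5 chromosome structure genes, 5 spindle motors, 4 centrosome and microtubule regulators and 4 cytokinesis genes. All 34 were found.

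RNA was measured by sequencing in 2 libraries of sorted cells from brains of late larvae of the third instar, 1 library per genotype, so no difference has a replicate check and no test between genotypes was possible. In both, worniu-Gal4 together with ase-Gal80 drove membrane-bound GFP (UAS-CD8::GFP) in type II neuroblast lineages, whose stem cells make neurons by way of intermediate neural progenitors (INPs), and the cells with strong GFP were sorted. The wild type cells (w1118 strain) were labelled as neuroblasts, INPs and ganglion mother cells without neurons. The osa RNAi cells carried in addition the RNAi line 7810 of the Vienna collection against osa, a subunit gene of the SWI/SNF (Brahma) chromatin remodelling complex, and were labelled as neuroblasts, neuroblast-like revertant cells and INPs. Eggs were laid for 24 h and the animals then kept for 5 days at 25 °C.

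In mitosis, kinases and condensin reshape chromosomes while the bipolar spindle forms, and kinetochores assembled on centromeric chromatin capture its microtubules. The spindle assembly checkpoint holds back the anaphase-promoting complex (APC/C) until every kinetochore is attached, after which separase cuts cohesin, the sister chromatids part and the central spindle guides cytokinesis. Type II neuroblasts divide asymmetrically and INPs divide several times, so these genes serve both kinds of progenitor, whereas postmitotic neurons have left the cycle. In bulk samples such as these, fewer cells of a type and less RNA per cell cannot be told apart.

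Levels are FPKM, the fragments of a gene relative to its transcript length and to all mapped fragments, so genes can be compared with each other. Bounds in brackets after an FPKM are those deposited with it. A fold is one FPKM value divided by the other, with a 95% interval computed from the reads implied by those bounds. Both cover counting error only. Differences subtract the wild type value of log2(FPKM + 1) from that of osa RNAi, which makes the changes of low genes look smaller than they are. A gene passed the 1.5-fold or 2-fold rule when its difference reached that fold, its mean FPKM was at least 1, both estimates were marked OK and its deposited bounds did not overlap between the libraries. Of 14210 genes, 7144 could be judged by these rules.

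The deposited bounds implied 10114268 reads on genes in wild type against 15706560 in osa RNAi, 1.55 times as many. The targeted gene osa was at 31.3 FPKM in wild type against 15.6 in osa RNAi, 2.01-fold lower (1.91 to 2.11). Only the knockdown animals carried the RNAi line, so effects of the line itself and of the knockdown cannot be told apart. Neuroblast markers were present in both libraries, with 8 of 8 at 1 FPKM or more and a summed level of 435 FPKM in wild type against 634 in osa RNAi. INP markers summed to 308 and 113 FPKM over 7 genes, with 6 of 7 past the 2-fold rule in the lower direction, where 6.79% of all genes were. Of the 6, hbn was at 22.5 and 1.49 FPKM, and opa, at 22.5 FPKM in wild type, had 0 in the osa RNAi library. The exception, erm, was at 44.7 and 41.8 FPKM with overlapping bounds. Neuron markers were not absent from either sort: 10 genes summed to 87.4 FPKM in wild type against 44.8 in osa RNAi. Most of each sum came from elav, at 41.3 and 30.5, and nerfin-1, at 24.3 and 3.24. Not all neuron markers fell. By the 1.5-fold rule 3 of the 7 judged were lower and 1 was higher, where 14.3% and 17.1% of all genes were. The higher one was Syt1, at 0.578 and 1.63 FPKM. Glial markers summed to 291 and 250 FPKM over 7 genes, mostly from nrv2 and Eaat1, while the defining glial gene repo had 0 in the wild type library, against 0.709 FPKM in osa RNAi. By the 2-fold rule 1 of the 4 glial markers judged was higher and 1 lower, where 7.78% and 6.79% of all genes were. The higher one was loco, at 5.53 and 12.4 FPKM, and the lower one gcm, at 3.45 and 1.05. Of 6 muscle markers none reached a mean of 1 FPKM, and of 6 each for haemocytes and fat body 2 and 1 did. The part of these cell markers and of the depth in the results on mitotic genes was not tested.

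The mitotic genes were transcribed in both genotypes at levels that differed little. All 34 were above 5 FPKM in both libraries, and 31 of them differed by less than 1.5-fold between the genotypes. The 3 exceptions were all higher in osa RNAi: the centromeric histone gene cid, the checkpoint kinase gene Bub1 and the chromokinesin gene Klp3A. None of the 34 was lower by the 1.5-fold rule, and none was in the authors' deposited table of 15 genes at a false discovery rate of 0.01. That table lists few genes beside the 14210 with a value, so absence from it says little about the 34.

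Against the background of all genes judged, the 1.5-fold rule passed 3 of 34 mitotic genes as higher (8.82%, where 17.1% of the 7144 genes passed) and 0 as lower (14.3% of all genes). The 2-fold rule passed 0 of 34 in either direction, where 7.78% of all genes were higher and 6.79% lower. Among the 5102 genes at least as abundant as the lowest mitotic gene, a mean of 7.45 FPKM, 13.0% were higher and 9.66% lower by the 1.5-fold rule. Of 5093 such genes above 0 in both libraries, 75.8% had a ratio within 1.5-fold and 51.7% within 1.25-fold. Of the 34 mitotic genes 91.2% lay within 1.5-fold and 64.7%, 22 genes, within 1.25-fold.

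Small differences leaned towards osa RNAi. With differences of any size counted, 21 of 34 mitotic genes were higher with bounds apart (61.8%, against 35.9% of all genes), 6 were lower with bounds apart (17.6%, against 30.0%) and 7 had overlapping bounds. Dividing the osa RNAi values by the median ratio of all genes left 17 of 34 higher and 7 lower, where 33.5% and 32.4% of all genes were. The genes polo, Bub3, rod and tum then had overlapping bounds. The median difference was 0.16 (quartiles −0.01 and 0.45, range −0.29 to 0.99), beside 0.04 for all genes judged (quartiles −0.32 and 0.40). Among the genes at least as abundant as the lowest mitotic gene, 36.8% were higher and 29.4% lower with bounds apart. The median mitotic gene had 1389 implied reads in wild type against 2334 in osa RNAi, and the median of all genes judged was 375 and 610; the part of this depth in the counts was not tested.

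**Figure D1:**
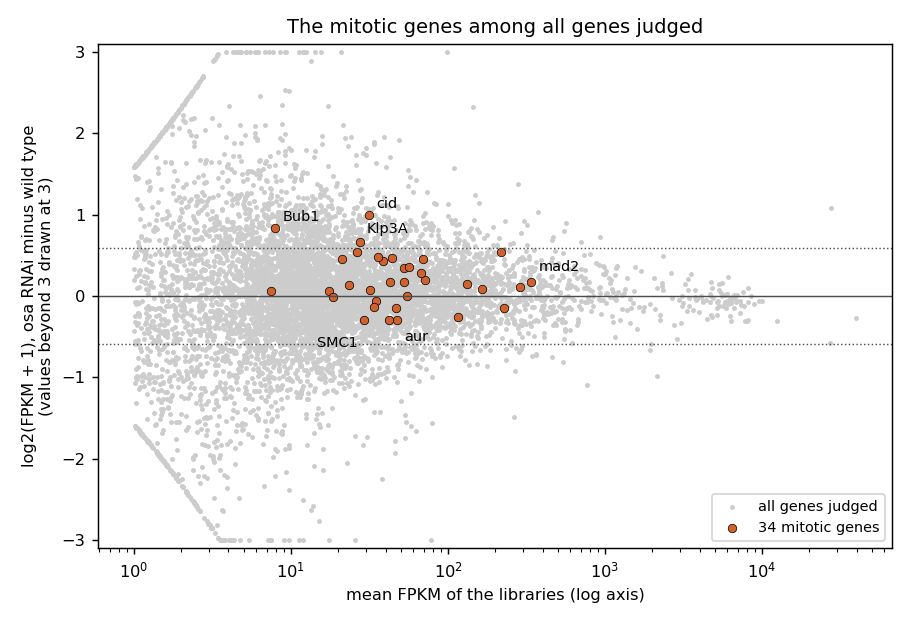
Difference in log2(FPKM + 1), osa RNAi minus wild type (vertical axis), against the mean FPKM of the libraries (horizontal log axis) for all 7144 genes judged (grey) and the 34 mitotic genes (orange), with dotted lines at a 1.5-fold difference and values beyond 3 drawn at 3. The mitotic genes lie between −0.29 and 0.99, and cid, Bub1 and Klp3A lie above the upper dotted line.

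The order of levels was much the same in both libraries. The checkpoint genes mad2 and Bub3 were the most abundant in each, followed by ial and borr, which changed places, and then by polo, Top2 and pim. The lowest were Bub1 and cana, and the highest level exceeded the lowest 59.0-fold in wild type and 47.2-fold in osa RNAi. Of the 34 genes, 32 stood above the median of all genes judged in each library (16.1 and 16.7 FPKM). Among the 33 neighbouring pairs in the order, 23 had overlapping bounds in wild type against 17 in osa RNAi, so many neighbours in the order did not differ beyond counting error. The largest shift in rank was that of cid, from 29 to 19. Across the 34 genes the Pearson correlation of log2(FPKM + 1) between the libraries was 0.970 and Spearman's rho was 0.933, a description of genes that share the same libraries. Over all genes judged the Pearson value was 0.935.

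**Figure D2:**
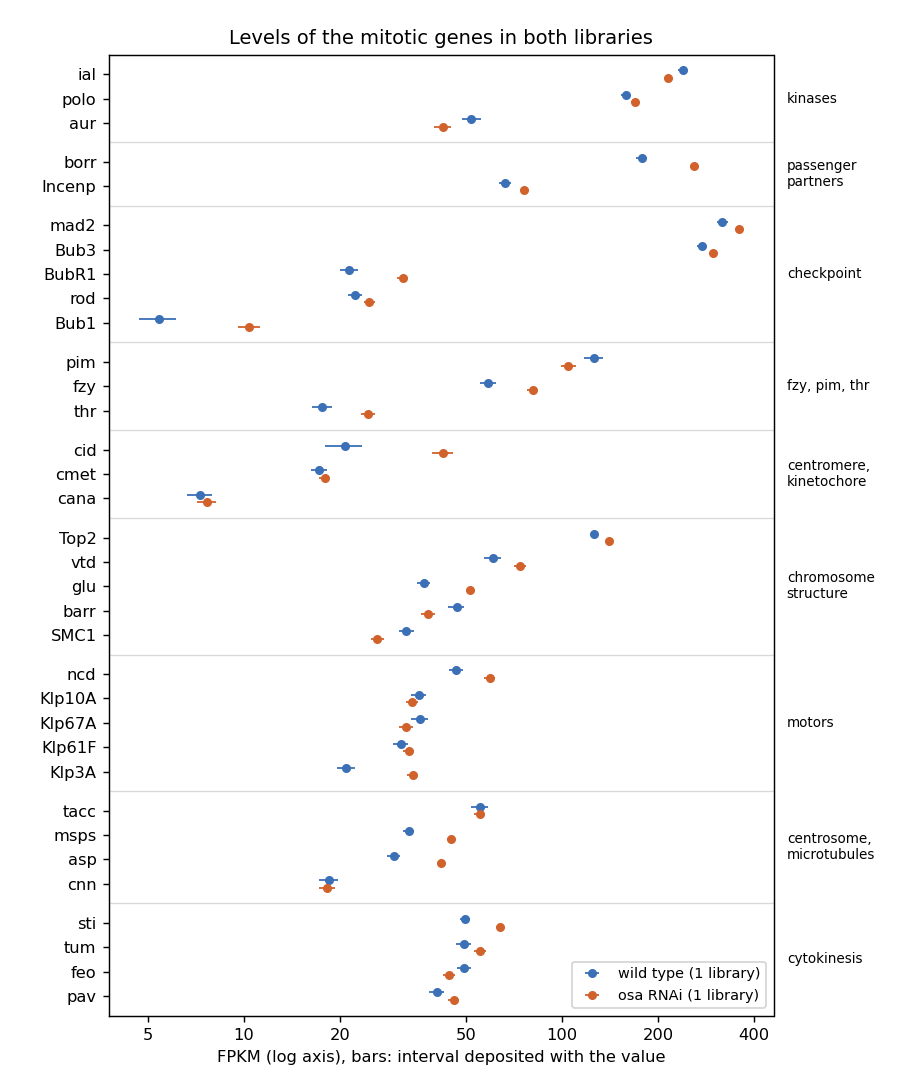
FPKM (horizontal log axis) of each of the 34 genes in the wild type library (blue) and the osa RNAi library (orange), grouped by role, with the bounds deposited beside each value. Levels run from 5.40 FPKM (Bub1, wild type) to 360 FPKM (mad2, osa RNAi), and most pairs of points lie close together.

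The mitotic kinases did not move together. The gene polo (3L from 20303105 to 20306566) encodes the Polo kinase, which acts at centrosomes, kinetochores and the midbody. It was at 158 FPKM in wild type (153 to 164) against 169 in osa RNAi (165 to 173), 1.07-fold higher (1.02 to 1.11). The Aurora A gene aur (3R from 7788852 to 7790550), whose kinase matures centrosomes and also acts in asymmetric neuroblast division, measured 51.8 FPKM in wild type (48.3 to 55.4) against 42.2 in osa RNAi (39.6 to 44.8). That is 1.23-fold lower (1.12 to 1.34), with bounds apart. The Aurora B gene ial (2L from 10856788 to 10858082) measured 239 FPKM in wild type (230.4 to 247) against 215 in osa RNAi (209 to 222), 1.11-fold lower (1.06 to 1.16). Both Aurora genes were therefore slightly lower and polo slightly higher, all within 1.25-fold. After division of the osa RNAi values by the median ratio of all genes (1.03), the bounds of polo overlapped.

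The partners of Aurora B in the chromosomal passenger complex, which corrects faulty kinetochore attachments and later acts in cytokinesis, were both higher in osa RNAi. The Borealin gene borr was at 178 FPKM in wild type (170.4 to 185) against 259 in osa RNAi (252 to 267), 1.46-fold higher (1.39 to 1.53). Its locus overlaps that of Ggamma30A (6.76 and 14.7 FPKM). The scaffold gene Incenp was at 66.1 and 75.96 FPKM, 1.15-fold higher (1.09 to 1.21). The level of ial was 3.61 times that of Incenp in wild type and 2.83 times in osa RNAi, while that of borr was 2.69 and 3.41 times that of Incenp. The kinase gene was thus above borr in wild type and below it in osa RNAi, with bounds apart in each library. The fourth subunit gene, Det (Survivin in vertebrates), was at 232 and 229 FPKM with overlapping bounds.

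All 5 genes of the spindle assembly checkpoint were higher in osa RNAi with bounds apart, by 1.08-fold to 1.93-fold, where 35.9% of all genes were. After division of the osa RNAi values by the median ratio of all genes (1.03), the bounds of Bub3 and rod overlapped. Of the 5, 1 passed the 1.5-fold rule. Bub1 (2L from 5279051 to 5283002), whose kinase recruits other checkpoint proteins to kinetochores, measured 5.40 FPKM in wild type (4.70 to 6.11) against 10.4 in osa RNAi (9.61 to 11.2). This is 1.93-fold higher (1.66 to 2.23), from 234 and 685 implied reads, and a difference of 0.83. BubR1, which sequesters the APC/C activator Fizzy, was at 21.4 FPKM (20.02 to 22.8) and 31.5 (30.2 to 32.8), 1.47-fold higher (1.37 to 1.59). Its difference of 0.54 lay just under the 1.5-fold rule.

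The other 3 of the 5 differed by less than 1.25-fold. Bub3, the binding partner of Bub1 and BubR1, was at 274 and 297 FPKM, 1.08-fold higher (1.04 to 1.13). The gene mad2, whose product joins BubR1 in the inhibitor of the APC/C, was at 319 and 360 FPKM, 1.13-fold higher (1.08 to 1.19). The gene rod, part of the complex that brings dynein to kinetochores, was at 22.4 and 24.8 FPKM, 1.11-fold higher (1.04 to 1.18). The loci of mad2, Bub3 and rod overlap other genes. Bub3 was 12.8 times as abundant as BubR1 in wild type and 9.41 times in osa RNAi. The remaining checkpoint kinase gene ald (Mps1), outside the 34, was lower, at 19.8 and 16.6 FPKM, and Mad1 was higher by the 1.5-fold rule at 12.7 and 19.9.

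Of the genes that set anaphase onset, the APC/C activator and the separase partner were higher and securin was lower. The activator gene fzy, the fly Cdc20, was at 58.5 FPKM in wild type (55.3 to 61.7) against 80.8 in osa RNAi (77.7 to 83.9), 1.38-fold higher (1.29 to 1.47). The gene thr, whose product is the regulatory partner of fly separase, was at 17.6 and 24.5 FPKM, 1.39-fold higher (1.27 to 1.52). The securin gene pim (2L from 10362989 to 10364046), whose product inhibits separase until the APC/C destroys it, measured 126 FPKM (117 to 134) and 105 (98.8 to 110.3). It was 1.20-fold lower (1.10 to 1.31). The level of pim was 7.12 times that of thr in wild type and 4.26 times in osa RNAi. The loci of fzy and thr overlap those of cact and CG14490, whereas that of pim overlaps no other gene. The separase gene Sse itself was at 16.5 and 13.5 FPKM with overlapping bounds.

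At the centromere, cid had the highest ratio of the 34 genes. It lies on 2R from 9373106 to 9374136 and encodes the histone H3 variant CENP-A that marks centromeres. The level was 20.7 FPKM in wild type (17.9 to 23.5) against 42.2 in osa RNAi (39.0 to 45.5), from 221 and 670 implied reads. That is 2.04-fold higher (1.75 to 2.38) as a plain ratio and 0.99 on the log2(FPKM + 1) scale, so it passed the 1.5-fold rule but fell just short of 2-fold. With a pseudocount of 0.1 it passed 2-fold. Other centromere genes were not higher: cal1, whose product loads CENP-A, was at 9.41 and 9.39 FPKM, and Cenp-C was at 22.9 and 16.6.

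The kinetochore kinesin genes cmet and cana, relatives of vertebrate CENP-E, were alike in both libraries. They lie side by side on 2L, cmet from 11260823 to 11269179 and cana from 11269727 to 11279847, with 547 bases between the loci. The level of cmet was 17.2 FPKM (16.2 to 18.2) and 17.9 (17.2 to 18.7), a ratio of 1.04 (0.972 to 1.12). The level of cana was 7.28 FPKM (6.62 to 7.93) and 7.63 (7.11 to 8.14), a ratio of 1.05 (0.939 to 1.17). Bounds overlapped for both genes, and cmet was 2.36 and 2.35 times as abundant as cana. The counting intervals allow no fold beyond 1.17 for either gene. Each locus overlaps another gene, and how reads were shared between the paralogs is uncertain.

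Within condensin and within cohesin, subunits went opposite ways. The condensin gene glu, the ATPase subunit SMC4, was at 36.7 FPKM in wild type (35.04 to 38.4) against 51.3 in osa RNAi (49.8 to 52.9), 1.398-fold higher (1.33 to 1.48). The non-SMC condensin gene barr was at 46.5 FPKM (43.9 to 49.2) and 37.9 (36.0 to 39.8), 1.23-fold lower (1.14 to 1.32). Thus glu was 0.789 times as abundant as barr in wild type and 1.36 times in osa RNAi, and their order was reversed. The locus of glu overlaps that of CG17904, whereas that of barr overlaps no other gene.

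In cohesin, vtd (Rad21), the subunit that separase cuts, was at 60.5 and 73.8 FPKM, 1.22-fold higher (1.13 to 1.31). It is the only one of the 34 genes placed on a heterochromatic scaffold in the files (3LHet from 2243571 to 2265363). SMC1 had the lowest ratio of all, at 32.4 FPKM (30.7 to 34.1) and 26.3 (25.04 to 27.5), 1.23-fold lower (1.15 to 1.32). The SMC3 gene, named Cap in the files, was higher by the 1.5-fold rule at 14.8 and 23.2 FPKM, so the 2 SMC subunits of cohesin differed in direction. Topoisomerase II (Top2), which untangles sister chromatids, had the most reads of the 34 genes and was at 126 and 140.0 FPKM, 1.11-fold higher (1.08 to 1.14).

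Of the spindle motors, Klp3A and ncd were higher and the others had overlapping bounds. Klp3A (X from 2493190 to 2498085), a chromokinesin that also acts in the central spindle, measured 20.9 FPKM in wild type (19.6 to 22.3) against 33.9 in osa RNAi (32.5 to 35.2). It was 1.62-fold higher (1.503 to 1.74), with a difference of 0.67. The minus-end motor gene ncd was at 46.5 and 59.1 FPKM, 1.27-fold higher (1.19 to 1.36). Its locus overlaps CG7789, which was the other way, at 22.4 and 11.5 FPKM.

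The bipolar motor gene Klp61F, which pushes spindle poles apart, was at 31.1 and 32.9 FPKM, a ratio of 1.06 (0.990 to 1.13). The depolymerising kinesin gene Klp10A was at 35.4 and 33.8 FPKM, a ratio of 0.954 (0.890 to 1.02). Klp67A, a kinesin that limits spindle length, was at 35.6 and 32.3 FPKM, a ratio of 0.906 (0.838 to 0.980), although its deposited bounds overlapped. These 3 motors stood between 31.1 and 35.6 FPKM in both libraries, and their intervals allow no fold beyond 1.19.

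The microtubule polymerase gene msps and the spindle pole gene asp were higher, whereas the centrosomal genes tacc and cnn had overlapping bounds. The gene msps was at 32.9 FPKM (31.6 to 34.3) and 44.7 (43.4 to 45.9), 1.36-fold higher (1.29 to 1.42). The gene asp, the fly ASPM, was at 29.6 FPKM (28.2 to 31.01) and 41.6 (40.3 to 42.9), 1.405-fold higher (1.33 to 1.48). The gene tacc, whose product anchors Msps at centrosomes, was at 55.01 and 55.1 FPKM, a ratio of 1.00 (0.933 to 1.07). The centrosome scaffold gene cnn was at 18.5 and 18.3 FPKM, a ratio of 0.989 (0.905 to 1.08). These FPKM values sum over 11 annotated transcripts of tacc and 12 of cnn. The level of msps was 0.598 times that of tacc in wild type and 0.811 times in osa RNAi.

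Of the cytokinesis genes, 3 of 4 were slightly higher. The citron kinase gene sti, whose product stabilises the contractile ring and midbody, was at 49.6 FPKM (47.8 to 51.4) and 63.6 (61.99 to 65.2), 1.28-fold higher (1.23 to 1.34). The genes tum and pav encode the GTPase-activating and the kinesin subunit of centralspindlin. The level of tum was 49.1 and 55.3 FPKM, 1.13-fold higher (1.05 to 1.21), and that of pav 40.3 and 45.6 FPKM, 1.13-fold higher (1.06 to 1.21). They kept nearly the same proportion to each other, with tum 1.22 and 1.21 times as abundant as pav. The microtubule bundler gene feo, the fly PRC1, was lower, at 49.2 FPKM (46.6 to 51.8) and 44.1 (42.1 to 46.2), 1.11-fold lower (1.04 to 1.19).

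**Figure D3:**
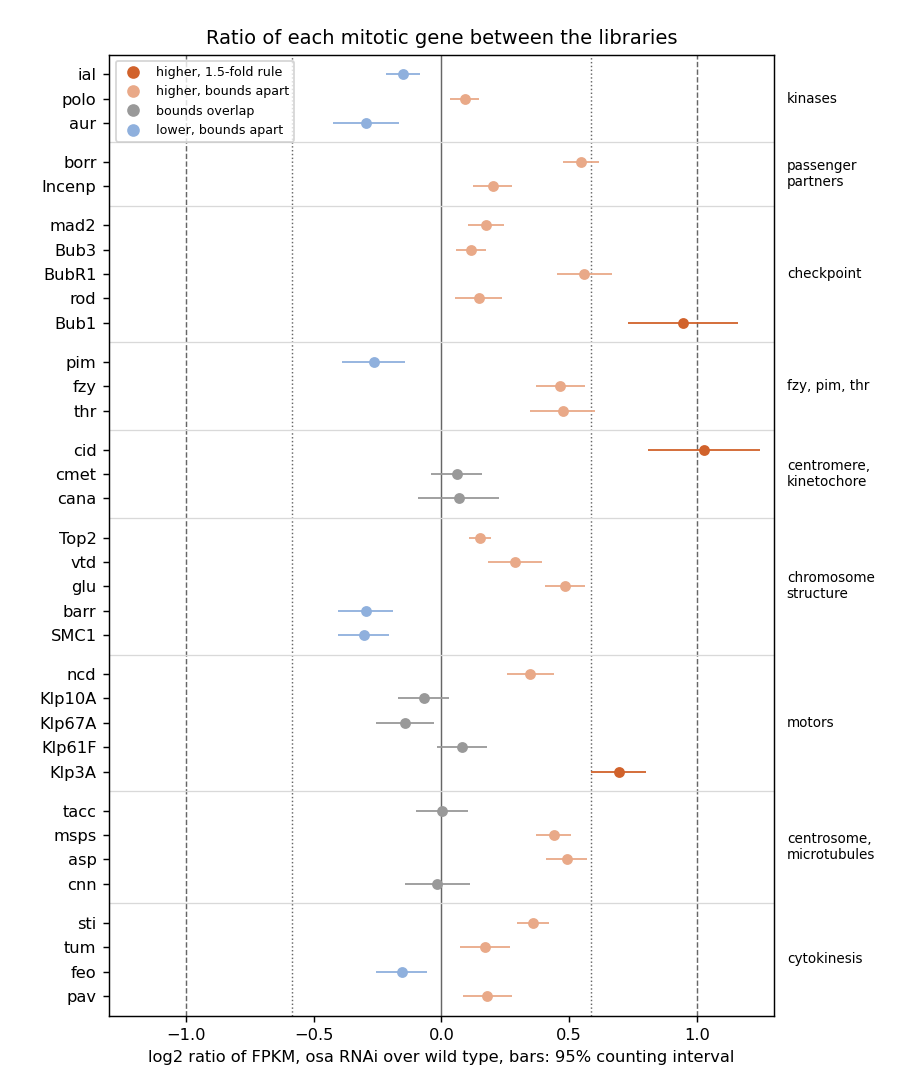
Log2 ratio of FPKM, osa RNAi over wild type (horizontal axis), of the 34 genes grouped by role, with 95% counting intervals, colours by the rule passed or by whether the deposited bounds overlap, and lines at equality, 1.5-fold (dotted) and 2-fold (dashed). The 5 checkpoint genes all lie to the right of equality, and glu and barr of condensin lie on opposite sides of it.

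Another 102 mitotic genes, 98 of which could be judged, had a median difference close to that of all genes. By the 1.5-fold rule 10 were higher and 5 lower (10.2% and 5.10%), 83 passed in neither direction, and the median was 0.03. The median of the 34 genes was 0.16, and the difference between the lists was not tested. With bounds apart at any size, 36 of 98 were higher and 26 lower (36.7% and 26.5%), near the 35.9% and 30.0% of all genes.

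The subunits of the APC/C, the ubiquitin ligase that ends mitosis, held 4 of the 10 higher genes and none of the lower ones. That is 4 of 12 APC/C and separase genes judged, where 17.1% of all genes were higher and 14.3% lower, and the group was not tested against other genes. The 4 were lmg at 5.63 and 17.8 FPKM, Cdc27 at 10.5 and 20.7, cdc16 at 14.4 and 25.4, and ida at 9.46 and 14.9. The locus of lmg overlaps CG34441, that of cdc16 overlaps CG6763 and that of ida overlaps mge. The 12 genes had a median difference of 0.30. Other higher genes were the centrosomal genes Grip75 (18.9 and 34.2 FPKM) and spd-2 (10.1 and 17.7). The formin gene dia was at 5.54 and 9.51 FPKM and the spindle gene mars at 24.5 and 38.4, and Mad1 and Cap complete the 10.

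The 5 lower genes were led by nod, a chromosome-arm kinesin known from female meiosis, at 71.4 FPKM in wild type against 20.1 in osa RNAi. It was the lowest of the 98 with a difference of −1.78, and its locus overlaps CG1561. The gamma-tubulin ring gene Grip128 was at 11.5 and 4.82 FPKM, the septin gene Sep1 at 53.4 and 30.9, nuf at 4.70 and 2.57, and the outer kinetochore gene Ndc80 at 22.9 and 14.7. The partners of Ndc80 in its complex were at 111 and 104 FPKM (Nuf2) and 81.8 and 90.9 (Spc25), both with overlapping bounds.

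Cyclin and Cdk genes spread more widely than the 34 mitotic genes. Of 21 cyclin, Cdk and related genes, 5 were higher and 2 lower by the 1.5-fold rule, with a median of 0.24 and a range of −1.38 to 1.57. The shares were 23.8% and 9.52%, beside 17.1% and 14.3% of all genes. The higher genes were the mitotic cyclin gene CycB3 at 54.4 and 164 FPKM, the S phase cyclin gene CycE at 30.6 and 66.1, Cdk4 at 7.97 and 17.0, the mitotic activator phosphatase gene stg at 53.5 and 98.4, and CycA at 160 and 247. The lower genes were dap, whose product inhibits the CycE kinase, at 21.8 and 7.77 FPKM, and the repressive E2F gene E2f2 at 54.3 and 34.2. The mitotic kinase gene cdc2 (Cdk1) was at 425 and 385 FPKM and CycB at 102 and 116. Of 30 DNA replication genes judged, 4 were higher and 2 lower (13.3% and 6.67%), with a median of 0.04. The replication genes furthest apart were the origin recognition gene Orc5 at 33.95 and 19.0 FPKM, and the polymerase alpha genes DNApol-alpha73 at 10.2 and 17.6 and DNApol-alpha50 at 51.4 and 30.9. The loci of Orc5 and DNApol-alpha50 overlap other genes. The 34 mitotic genes spanned a range of 1.29 units between their lowest and highest difference. The cyclins and Cdks spanned 2.95, the replication genes 1.54 and the 98 other mitotic genes 3.28. Such a range depends on the number of genes and on the outermost ones. Quartiles were more alike, at −0.01 and 0.45 for the 34 genes and −0.24 and 0.27 for the other mitotic genes. They were −0.18 and 0.22 for the replication genes and −0.26 and 0.35 for the cyclins and Cdks. Differences between these lists were not tested.

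**Figure D4:**
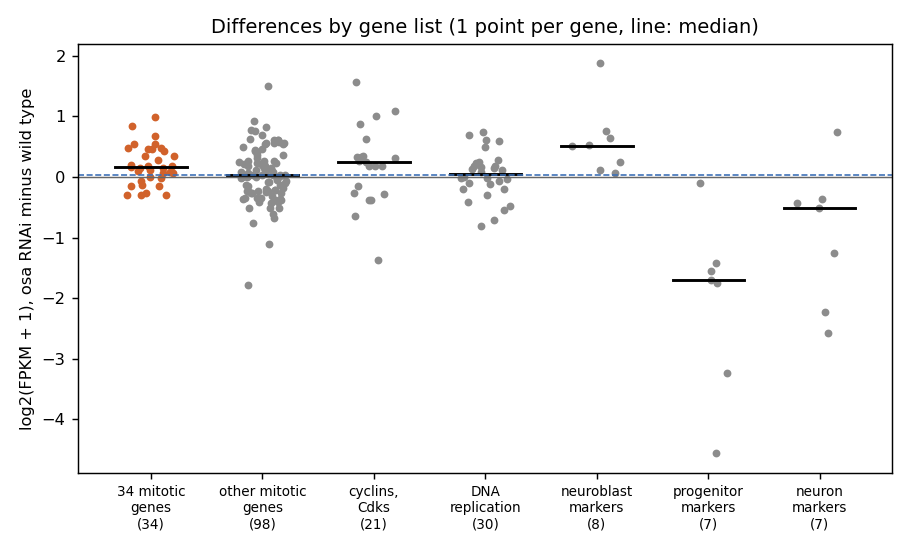
Difference in log2(FPKM + 1), osa RNAi minus wild type (vertical axis), of each gene judged in 7 lists, with the median of each list (black) and of all genes judged (dashed). The median is 0.16 for the 34 mitotic genes, 0.03 for the 98 other mitotic genes, 0.24 for cyclins and Cdks, 0.04 for replication genes, 0.51 for neuroblast markers, −1.70 for INP markers and −0.51 for neuron markers.

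Of 16 germline and meiosis genes, checked because several mitotic genes have germline relatives, 8 were listed at 0 in both libraries, among them the maternal tubulin gene alphaTub67C and the testis tubulin gene betaTub85D. The maternal gamma-tubulin gene gammaTub37C was at 7.84 and 11.2 FPKM, and the meiotic APC/C activator gene cort at 3.80 and 2.73 FPKM. Of the 8 that could be judged, 2 were higher and 2 lower by the 1.5-fold rule, and the median difference was 0.01. These shares are 25% each, beside 17.1% higher and 14.3% lower of all genes. The germline gene vas was listed at 0 in the wild type library, against 3.71 FPKM in osa RNAi, and bam was at 0.506 and 5.20 FPKM. The lower genes were c(3)G, a synaptonemal complex gene, at 4.26 and 1.07 FPKM, and grau at 18.9 and 11.8. The loci of vas, bam and c(3)G overlap those of vig, CG11854 and CG9589.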

How the data were processed

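The authors deposited 1 Cufflinks gene table per library with FPKM, a lower and an upper bound and a status, per the file headers. Tools named in the submitters' processing notes, with no role, are Cufflinks 1.3.0, DESeq 1.8.3, TopHat 1.4.1, HTSeq and BWA 0.6.1. Neither the build and annotation nor the use of strand in counting is given in the sources used here; coordinates are the files' own, counted from 1, and genes with overlapping loci (13 of the 34) are uncertain. The adjusted p-values of the authors' deposited DESeq table served only to see which genes it lists.

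Tables were joined by gene identifier with pandas 2.3.3. Each bound lies 2 × FPKM/√n from its value. Among genes with 1 transcript and under 50 reads, n came out whole (tolerance 0.02) for 93.8% of 784 in wild type and 93.9% of 942 in osa RNAi, and n was taken as implied reads. Members, lists and rules were chosen with earlier results of these data known. The rule for named genes was all 34, osa, up to 6 rises and 6 falls of the other mitotic list past the 1.5-fold rule, up to 3 of the largest differences past it in the cyclin, replication and marker lists, and defining markers. The other genes named were chosen after their values were seen. Simulated counts served to check the 2-fold rule alone. Neither the 1.5-fold rule nor the counts of differences of any size were checked in that way. Sequences were not used here.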

Additional observations from a re-analysis of the deposited data

How the results depend on the processing

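The 9 alternatives to the main settings were pseudocounts of 0.1 and 5, no FPKM minimum or a minimum of 5, dividing osa RNAi by the median ratio (1.03) or by that of upper quartiles (1.01), no requirement on bounds, any status, and overlapping loci left out. With a pseudocount of 0.1, 1 of the 34 mitotic genes (cid) was higher by the 2-fold rule instead of 0, and 15 instead of 10 of the other mitotic genes by the 1.5-fold rule. Of all genes judged, 18.5% were then higher by the 1.5-fold rule, against 17.1% in the main settings. With a pseudocount of 5, 1 instead of 3 of the 34 was higher by the 1.5-fold rule, and of the other mitotic genes 5 were higher and 3 lower. The shares of all genes also fell with this pseudocount, to 10.5% higher and 8.57% lower. Without overlapping loci, which leaves 21 of the 34 and 54 others, 13 of the 21 were higher and 6 lower with bounds apart at any size. These 2 counts were added after seeing the data, and the shares of all genes left were 36.3% and 29.8%. Of the 54 others, 4 were higher and 2 lower by the 1.5-fold rule, beside 16.3% and 13.5% of all genes left. The median of the 34 ran from 0.12 to 0.17. Of 259 single values under alternatives, 258 moved by less than their counting interval, and the exception was Bub1, at 0.57 with a pseudocount of 5. Many of the 259 could not move. Only the pseudocounts and the rescalings can change a single value, whereas the settings for FPKM minimum, status and overlapping loci only choose which genes are judged. Both rescalings turned the sign of 1 gene, tacc, whose bounds overlapped. No paired analysis was possible because each genotype has 1 library.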
